A study of Mus musculus with 45 samples.

Results

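The genes that bring long-chain fatty acids to a cell, across its membrane and through its cytosol were followed through 3 mouse tissues, the liver, skeletal muscle and epididymal fat pad, of 2 inbred strains on 2 diets. They were chosen by gene symbol: the lipase Lpl, the membrane receptor Cd36, the fatty acid transport proteins Slc27a1 and Slc27a2, and the fatty acid-binding proteins Fabp1, Fabp2, Fabp3, Fabp4 and Fabp5. All 9 were on the Affymetrix array with at least 1 probe set annotated to that symbol alone, 12 probe sets of 12488 in all, and 9 of the 8251 genes tested. Cd36, Lpl and Fabp1 had a second, dimmer probe set, and the brighter one stands for the gene unless the other is named. The mice were wild-type C57Bl/6 (B6) or 129S6/SvEvTac (129S6), 6 months old, and ate low-fat or high-fat food, which gave 12 groups of tissue, strain and diet. Each of the 45 arrays carried labelled cRNA from the pooled RNA of 2 to 3 mice, so errors describe how pools vary, not single mice. There were 4 arrays per group, except for 3 in B6 low-fat muscle and 3 in both 129S6 fat groups. Only 1 diet is described, with 21% of its calories as fat, and neither its name nor the makeup of the other is stated in the sources.

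Circulating triglyceride is split at the capillary wall by lipoprotein lipase, which is made by the muscle fibres and adipocytes beneath. The freed fatty acids enter cells by diffusion and with the help of CD36 and of the SLC27 proteins, which also activate fatty acids to acyl-CoA. Inside the cell they are carried by small binding proteins that come in tissue isoforms, Fabp1 in liver and gut, Fabp2 in the intestinal lining, Fabp3 in heart and skeletal muscle, Fabp4 in adipocytes and macrophages, and Fabp5 in epidermis, adipocytes and macrophages.

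The values are the deposited log2 values, so a difference of 1 log2 unit is a factor of 2 in signal. Means are given with the SD over arrays and differences with the SE of the limma fit, and an adjusted p is limma's two-sided p after Benjamini-Hochberg adjustment over the 8251 genes, called under 0.05. The table holds no detection calls, so it is not known whether a dim probe set was above background, and RMA compresses the differences of dim probe sets. Levels are compared within a probe set, never between probe sets. In whole tissue, fewer cells of a type and less RNA per cell cannot be told apart.

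The tissue labels held by markers. The summed level of 7 hepatocyte genes was 14.68 to 15.39 in liver and at most 11.98 elsewhere, that of 8 muscle fibre genes was 13.74 to 15.68 in muscle and at most 11.08 elsewhere, and that of the 4 measured of 7 white adipocyte genes was 13.30 to 14.08 in fat and at most 11.19 elsewhere. Of 3 epididymis genes 2 were measured, and their summed level was at most 6.35 in liver and muscle. In fat it was 7.20 to 12.74 in B6 and 6.76 to 9.57 in 129S6, and the part of epididymal RNA in the fat values was not tested. Some arrays stood apart. In muscle, the 4 B6 high-fat arrays and 129S6 low-fat array 9 had a smaller spread of values (SD of all probe sets 1.57 to 1.70 against 1.80 to 1.88 on the other 10) and correlated with those 10 at 0.849 to 0.961, where the 10 correlated with each other at 0.968 to 0.994. In fat, B6 high-fat array 7 and 129S6 high-fat arrays 12 and 13 had a signal at the 3' end of the Gapdh control that exceeded its 5' end by 5.81 to 6.03 log2 units. The other fat arrays were at -0.06 to 2.36, liver array 11 of the 129S6 low-fat group was at 3.26, the 4 B6 low-fat livers at 0.824 to 1.69 and the other 11 livers at 0.04 to 0.406. Array numbers ran in blocks: the B6 low-fat livers had a run of their own, 129S6 low-fat livers 5 and 6 ran with the 129S6 high-fat livers, and 129S6 low-fat livers 11 and 12 with the B6 high-fat livers. In fat, the B6 arrays and 129S6 low-fat array 9 formed a run, and the other 129S6 arrays formed another. The labels do not state whether a run shared a hybridisation day.

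**Figure D1:**
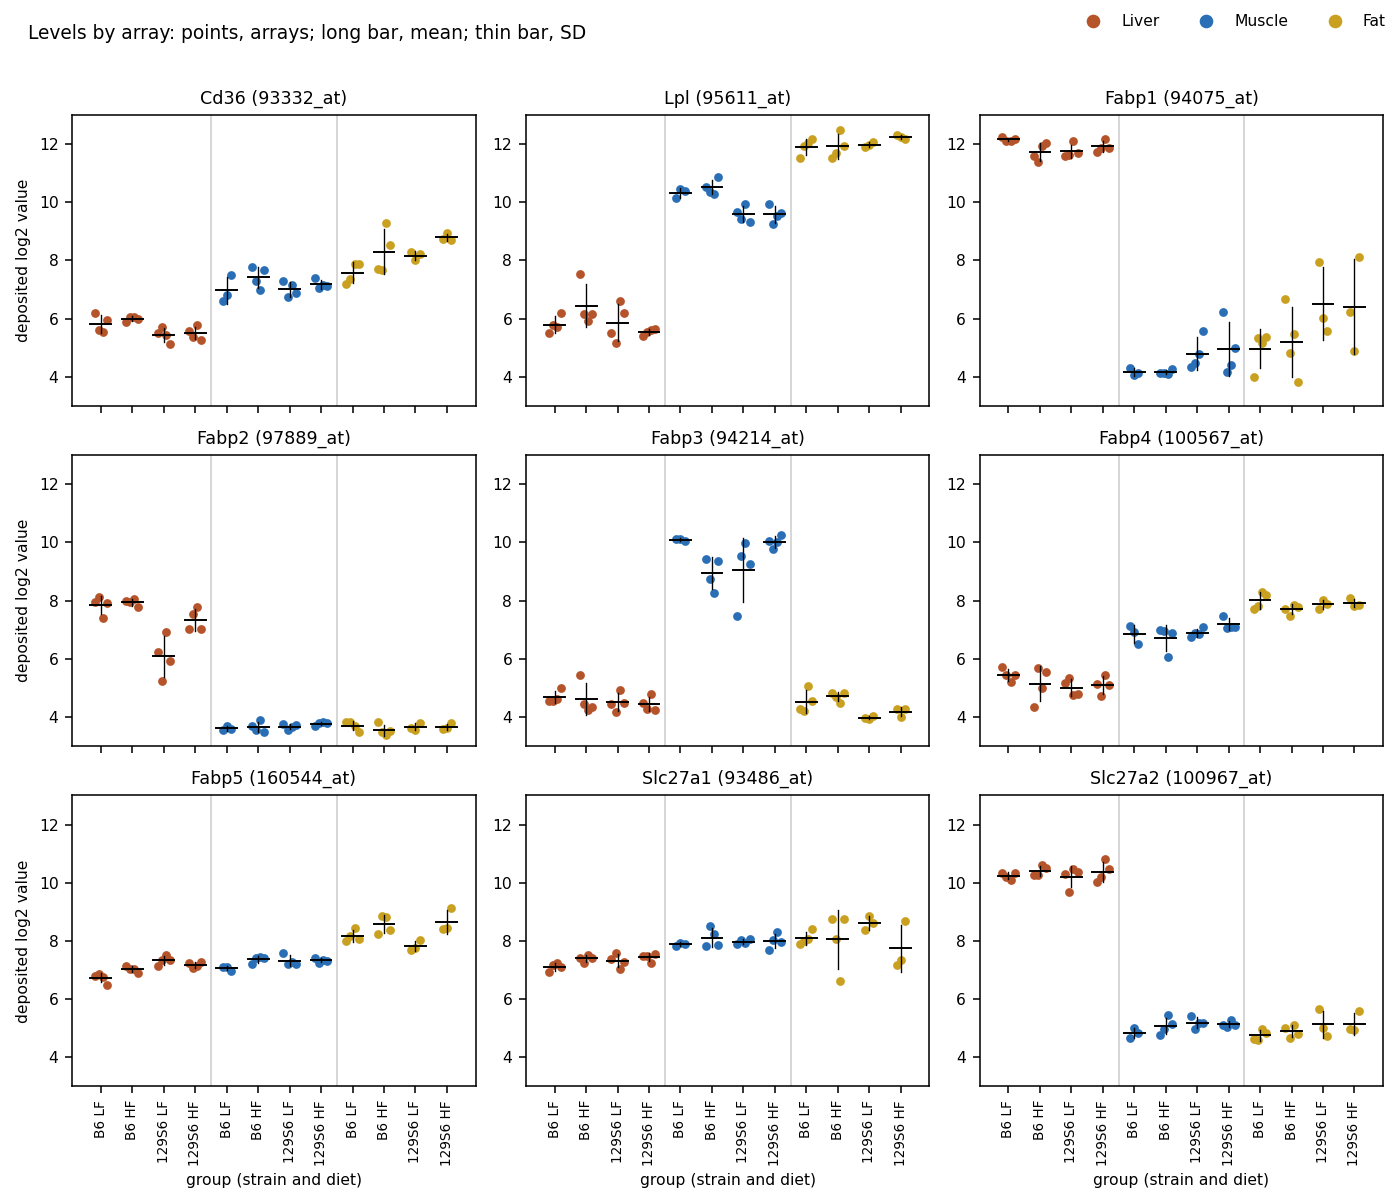
Deposited log2 values of the 9 genes on each of the 45 arrays (points), by tissue, strain and diet, with the group mean (long bar) and SD (thin bar). Fabp1, Fabp2 and Slc27a2 stand high in the liver groups, Fabp3 in the muscle groups, and Lpl falls in separate bands for liver (5.17 to 7.55), muscle (9.25 to 10.86) and fat (11.53 to 12.50).

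The binding proteins divided by tissue. Fabp1, the liver isoform, lay between 11.37 and 12.23 on the 16 liver arrays, between 4.06 and 6.24 on the 15 muscle arrays and between 3.81 and 8.12 on the 14 fat arrays, so no array of another tissue reached the livers. Liver exceeded muscle by 7.38 ± 0.26 log2 units, a 166-fold difference in signal (adjusted p = 2.32e-25), and fat minus liver was -6.12 log2 units (SE 0.26, adjusted p = 2.80e-22). The dim second probe set of Fabp1 read only 4.33 to 5.11 in liver. Its liver minus muscle difference was 0.34 (SE 0.09, adjusted p = 0.00131 in the limma fit of all probe sets). Fabp2, the intestinal isoform, was also a liver gene on these arrays. It ranged from 5.23 to 8.14 in liver and only from 3.48 to 3.89 in muscle and from 3.37 to 3.83 in fat. Liver exceeded muscle by 3.63 ± 0.10 (12.4-fold, adjusted p = 8.56e-29), and fat minus muscle was -0.03 (SE 0.10, adjusted p = 0.785). The 2 measured of 4 markers of intestinal lining, Vil1 and Lct, had summed levels of 4.61 to 4.98 in liver and 4.59 to 5.33 elsewhere.

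Fabp3, the heart and muscle isoform, was at 7.48 to 10.25 in muscle, 4.16 to 5.44 in liver and 3.95 to 5.07 in fat. Muscle exceeded both, with liver minus muscle at -4.96 log2 units (SE 0.16, 31.2-fold, adjusted p = 9.26e-27) and fat minus muscle at -5.18 (SE 0.16, 36.2-fold, adjusted p = 1.10e-25). Liver and fat overlapped, with fat minus liver at -0.21 (SE 0.16, adjusted p = 0.255). Fabp4, the adipocyte isoform, followed a graded order, with fat at 7.49 to 8.31, muscle at 6.06 to 7.49 and liver at 4.36 to 5.72. Fat exceeded liver by 2.70 ± 0.11 (6.50-fold, adjusted p = 7.68e-23) and muscle by 0.96 ± 0.11 (1.95-fold, adjusted p = 1.86e-09). Adipoq, the adipocyte hormone adiponectin, was at 8.62 to 10.34 on the muscle arrays, 4.75 to 5.61 in liver and 11.38 or more in fat, and its part in the muscle level of Fabp4 was not tested.

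Fabp5 was the most even of the binding proteins. It lay at 7.68 to 9.12 in fat, 6.98 to 7.60 in muscle and 6.50 to 7.53 in liver. Fat stood above liver by 1.24 ± 0.07 (2.36-fold, adjusted p = 5.39e-18) and above muscle by 1.03 ± 0.07 (2.05-fold, adjusted p = 3.74e-15). Liver minus muscle was only -0.20 (SE 0.07, adjusted p = 0.0107), and with the SD of each array as a covariate it was -0.13 (adjusted p = 0.26). Fabp4 and Fabp5 are near neighbours on chromosome 3, with Pmp2 and Fabp9, 2 further genes of the family, between them.

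Lpl stepped up from liver to muscle to fat, and the arrays of the 3 tissues did not overlap. Fat exceeded liver by 6.10 ± 0.13 log2 units (68.6-fold, adjusted p = 4.93e-32) and muscle by 2.01 ± 0.14 (4.02-fold, adjusted p = 1.34e-15). Cd36 had the same order over a smaller span, with liver at 5.14 to 6.19, muscle at 6.59 to 7.76 and fat at 7.19 to 9.30. Its fat level exceeded liver by 2.52 ± 0.12 (5.73-fold, adjusted p = 2.82e-20) and muscle by 1.06 ± 0.13 (2.09-fold, adjusted p = 2.39e-09). Within the groups, the excess of fat over muscle in Cd36 ran from 0.61 (SE 0.26, adjusted p = 0.0609) in B6 low-fat to 1.61 (SE 0.26, adjusted p = 4.28e-06) in 129S6 high-fat.

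The transport proteins behaved differently from each other. Slc27a2, which also activates very long-chain and bile acids, lay at 9.68 to 10.81 in liver against 4.67 to 5.44 in muscle and 4.58 to 5.66 in fat, a gap of 5.25 ± 0.09 between liver and muscle (38.0-fold, adjusted p = 5.50e-35). Fat minus muscle was -0.08 for Slc27a2 (SE 0.10, adjusted p = 0.492). Slc27a1, the muscle and fat transporter, was at 7.70 to 8.52 in muscle, 6.63 to 8.86 in fat and 6.92 to 7.57 in liver. It was lower in liver than in muscle, at -0.67 (SE 0.14, 1.59-fold, adjusted p = 8.09e-05), and fat and muscle differed by 0.13 (SE 0.15, adjusted p = 0.418). Without B6 high-fat fat array 7, that last difference was 0.25 (adjusted p = 0.0369).

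By count, all 9 genes passed in liver against muscle, 3 higher and 6 lower, where 68.0% of all genes passed, 24.6% higher and 43.4% lower. In fat against liver 8 passed, 5 higher and 3 lower (57.7% of all genes, 29.1% higher and 28.7% lower), and in fat against muscle 6 passed, 5 higher and 1 lower (71.5%, 30.4% higher and 41.1% lower). In each comparison most genes on the array passed as well. The median difference of the 9 was -0.67, 0.81 and 0.96 in these comparisons, beside -0.11, -0.01 and -0.07 over all genes.

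**Figure D2:**
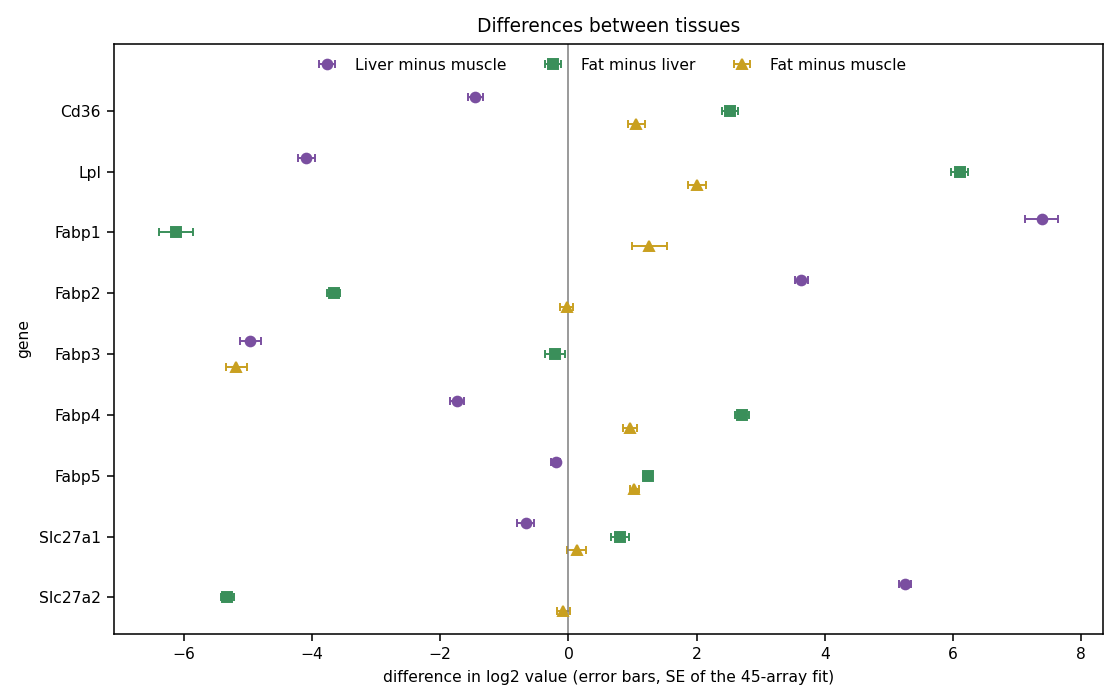
Differences in log2 value between tissues for the 9 genes, each the mean of the 4 strain and diet groups, with the SE of the 45-array fit. Fabp1, Fabp2 and Slc27a2 lie far to the right for liver minus muscle (7.38, 3.63 and 5.25) and far to the left for fat minus liver, Fabp3 lies far to the left against muscle, and Lpl reaches 6.10 for fat minus liver.

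Promoter windows of 250 bases before the annotated start were read from RefSeq (GRCm38.p6), which held 6 of the 9 genes: Cd36, Fabp1, Fabp2, Fabp3, Slc27a1 and Slc27a2. The windows of the 3 liver-high genes and of the muscle isoform are shown 5′ to 3′, as the genes far higher in 1 tissue than in the others that the table holds. Capitals mark matches, searched on both strands, to 3 short motifs, and no match overlapped another. The first is AGGTCA, the half-site that nuclear receptors such as PPAR and RXR bind, which reads TGACCT where it lies on the other strand. The second is TATAAA, the core of the TATA box that positions the start of transcription in many tissue genes. The third is GTTAAT, the half-site of the liver and gut factor HNF1.
Fabp1 (chr6:71199629-71199878, plus strand): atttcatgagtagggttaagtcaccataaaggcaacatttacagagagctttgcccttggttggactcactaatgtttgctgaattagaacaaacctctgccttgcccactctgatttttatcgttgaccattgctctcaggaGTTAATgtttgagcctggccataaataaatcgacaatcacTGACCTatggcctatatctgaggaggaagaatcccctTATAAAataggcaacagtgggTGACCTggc
Fabp2 (chr3:122894822-122895071, plus strand): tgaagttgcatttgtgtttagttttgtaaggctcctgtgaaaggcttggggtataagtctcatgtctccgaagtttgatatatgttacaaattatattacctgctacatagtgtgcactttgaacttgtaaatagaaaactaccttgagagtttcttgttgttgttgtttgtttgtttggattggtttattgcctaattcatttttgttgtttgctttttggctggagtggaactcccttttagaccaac
Slc27a2 (chr2:126552774-126553023, plus strand): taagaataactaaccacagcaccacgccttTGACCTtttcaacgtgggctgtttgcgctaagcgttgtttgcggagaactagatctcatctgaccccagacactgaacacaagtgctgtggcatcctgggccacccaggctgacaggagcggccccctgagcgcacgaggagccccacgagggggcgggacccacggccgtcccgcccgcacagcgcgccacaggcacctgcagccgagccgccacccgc
Fabp3 (chr4:130308488-130308737, plus strand): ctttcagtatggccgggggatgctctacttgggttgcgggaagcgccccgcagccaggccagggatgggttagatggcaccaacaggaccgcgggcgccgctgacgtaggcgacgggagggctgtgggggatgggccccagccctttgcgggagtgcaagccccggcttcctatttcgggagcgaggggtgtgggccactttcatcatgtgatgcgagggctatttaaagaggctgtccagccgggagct
Fabp1 held 2 half-site matches, from 67 to 62 and from 9 to 4 bases before the start, a TATA box match from 30 to 25 and an HNF1 half-site match from 107 to 102. Slc27a2 held 1 half-site match at 220 to 215, and Cd36, not shown, held 1 at 228 to 223. Fabp2, Fabp3 and the 3 windows of Slc27a1 held none of these letters. Of 32851 promoter windows of the same length, 14.0% held the nuclear receptor half-site, 12.4% the TATA box letters and 6.4% the HNF1 half-site, so a match in one window is a description of its letters.

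In liver, the intestinal isoform Fabp2 was the member that differed most between the strains. On the low-fat diet its B6 arrays read 7.96, 8.14, 7.42 and 7.93 and its 129S6 arrays 6.25, 5.23, 6.92 and 5.93. Every B6 array was above every 129S6 array, and the 129S6 group was also the more spread. The means were 7.86 ± 0.31 and 6.08 ± 0.70 (SD, n = 4 each), and the difference of 1.78 ± 0.27, a factor of 3.43, passed the test (adjusted p = 3.17e-04), and was 1.08 with the SD of each array as a covariate (adjusted p = 0.0459). On the high-fat diet the B6 arrays read 7.98, 7.94, 8.07 and 7.79 and the 129S6 arrays 7.01, 7.55, 7.77 and 7.02. These groups just failed to meet, and the difference of 0.61 ± 0.27 did not pass (adjusted p = 0.225).

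Set along the diet axis, Fabp2 in 129S6 liver was higher on the high-fat diet on every array, by 1.26 ± 0.27 (2.39-fold), which missed the threshold at adjusted p = 0.071. Without 129S6 low-fat array 11, the array with the high Gapdh end difference, it was 1.54 (adjusted p = 0.00847). Within the 1 run of array numbers that held both diets of this strain it was 1.60 (adjusted p = 0.0466). The low-fat side of that run held only arrays 5 and 6. With the runs as a block in the fit of all livers the difference was 1.60 (adjusted p = 0.0465). By the layout of the runs this value rests on the same arrays, so it is not a separate result. Of the 26 alternatives run for this diet difference 5 called it, with values of 0.97 to 1.60 and adjusted p of up to 0.574. In B6 liver the diet difference of Fabp2 was 0.08 ± 0.27 (adjusted p = 0.858). The test of B6 against 129S6 in the diet difference gave -1.17 ± 0.38 (adjusted p = 0.0807), -1.45 without array 11 (adjusted p = 0.00614) and -0.44 with the SD of each array as a covariate (adjusted p = 0.462). The 7 hepatocyte genes, summed, were at 15.08 to 15.14 in B6 low-fat, 15.06 to 15.20 in 129S6 low-fat and 15.07 to 15.39 in 129S6 high-fat liver. The 129S6 high-fat arrays at 15.33 and 15.39 were those with Fabp2 at 7.55 and 7.77, and those at 15.07 and 15.22 had Fabp2 at 7.01 and 7.02. The part of this in the Fabp2 values was not tested.

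Fabp5 went the other way between the strains on the low-fat diet. The B6 livers read 6.79, 6.87, 6.77 and 6.50 and the 129S6 livers 7.14, 7.33, 7.53 and 7.35, without overlap. Fabp5 was lower in B6, at -0.60 (SE 0.10, 1.52-fold, adjusted p = 8.59e-04), while on the high-fat diet the groups overlapped and the difference was -0.14 (SE 0.10, adjusted p = 0.484). For 8 macrophage genes, a cell type that also makes Fabp5, the summed level was 10.22 to 10.44 in B6 low-fat livers and 9.77 to 10.22 in the 129S6 ones.

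Fabp1, at 12.12 to 12.23 in B6 and 11.60 to 12.09 in 129S6 low-fat liver, was also apart on every array, by 0.41 ± 0.14 (adjusted p = 0.0668).

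Fabp2 and Fabp5 were the members called between the strains on the low-fat diet, 1 higher and 1 lower, where 13.8% of all genes passed, 10.0% higher and 3.83% lower. Both calls share the B6 low-fat livers, whose array numbers form a run with no other group in it, so that run and group cannot be told apart, and whose Gapdh end difference, given above, was larger than on all but 1 of the other livers. With the runs as a random block, a fit added after the data were seen, the adjusted p was 0.0513 for Fabp2 and 0.102 for Fabp5. The differences, 1.78 and -0.60, could not move in that fit, since the layout of groups over runs fixes them. On the high-fat diet 0 of 9 passed with limma and 3 had an unadjusted p under 0.05 (5.16% of all genes passed). Those 3 were Fabp2, Lpl and Cd36. With the runs as a block, the high-fat differences of Fabp2 and Lpl turned, to -0.08 (adjusted p = 0.927) and -0.15 (adjusted p = 0.870), and that of Cd36 was 0.80 (adjusted p = 0.0893). The run term there rests on 129S6 low-fat livers 11 and 12 against 5 and 6 alone, and array 11 had the Gapdh end difference of 3.26.

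Cd36, the receptor, read 5.87, 6.07, 6.05 and 5.98 in B6 high-fat liver and 5.57, 5.38, 5.77 and 5.28 in 129S6. The groups did not overlap, and the difference of 0.49 ± 0.15 had an adjusted p of 0.0661, or 0.0131 when only these 2 groups were fitted. Lpl read 7.55, 6.17, 5.91 and 6.15 in B6 high-fat liver and 5.41, 5.54, 5.61 and 5.65 in 129S6, a difference of 0.89 ± 0.31 (adjusted p = 0.122). Much of that rested on B6 array 13, without which it was 0.53 (adjusted p = 0.341). That array also had the highest Acta1, the skeletal muscle actin, among the livers (9.57, where the others ran from 5.26 to 8.68), the highest liver value of Fabp3 (5.44) and the highest summed macrophage level (11.89). The part of other tissue or cells in its Lpl value was not tested.

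The diet comparison in liver called 0 of 9 members in B6, where 18.2% of all genes passed, and 0 of 9 in 129S6, where 0.23% did (limma; 3 and 1 members had an unadjusted p under 0.05). In B6, the dim second probe sets of Lpl and Cd36 were higher on the high-fat diet in the limma fit of all probe sets. Their differences were 0.39 ± 0.13 (adjusted p = 0.0485) and 0.34 ± 0.11 (adjusted p = 0.0409). That of Fabp1 differed by 0.30 ± 0.12 (adjusted p = 0.0878). By its brighter probe set Fabp1 went the other way and was close to the threshold in B6. It read 12.23, 12.12, 12.12 and 12.16 on the low-fat and 11.60, 11.37, 11.93 and 12.05 on the high-fat diet, so the groups were separate, and the difference was -0.42 ± 0.14 (adjusted p = 0.0504). The hepatocyte sum was also lower and separate, at 14.68 to 15.05 on the high-fat diet against 15.08 to 15.14, lowest on array 14, which had the lowest Fabp1. Of its 7 genes 0 were called higher and 1 lower, with a median difference of -0.35, and its part in the Fabp1 difference was not tested. Fabp5 in the same livers differed by 0.29 ± 0.10 (adjusted p = 0.0514), with low-fat arrays at 6.50 to 6.87 and high-fat arrays at 6.88 to 7.15. Slc27a1 was higher by 0.29 ± 0.11 (adjusted p = 0.0801), with 6.92 to 7.25 against 7.25 to 7.53. With the runs as a random block these 3 differences were -0.50, 0.23 and 0.38, with adjusted p of 0.338, 0.515 and 0.325. In 129S6 liver, Fabp1 differed between the diets by 0.17 ± 0.14 and Fabp5 by -0.17 ± 0.10, the opposite sign for each. Of the tests of B6 against 129S6 in the diet difference, 0 of 9 passed with limma, beside 5.49% of all genes. Of the members, 4 had an unadjusted p under 0.05. Fabp5 was at 0.46 ± 0.14 (adjusted p = 0.0675) and Fabp1 at -0.59 ± 0.20 (adjusted p = 0.1003). The dim second probe set of Fabp1 was at 0.47 ± 0.16 (adjusted p = 0.114 in the fit of all probe sets).

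Slc27a2 differed little between the liver groups in the main fit. Its 4 liver groups had means of 10.24 ± 0.11 in B6 low-fat, 10.41 ± 0.18 in B6 high-fat, 10.21 ± 0.36 in 129S6 low-fat and 10.37 ± 0.34 in 129S6 high-fat (SD, n = 4 each). Of its diet and strain differences in liver, the largest was 0.16 (SE 0.17, adjusted p = 0.533), about the size of its own error. That difference, for diet in B6, depended on the normalization: after quantile normalization it was 0.50 (adjusted p = 0.0240).

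In muscle, Lpl was the member that set the strains apart. On the high-fat diet the B6 arrays read 10.54, 10.37, 10.30 and 10.86 and the 129S6 arrays 9.95, 9.25, 9.53 and 9.62, with no overlap. The means of 10.52 ± 0.25 and 9.59 ± 0.29 (SD, n = 4 each) differed by 0.93 ± 0.17, a factor of 1.90 (adjusted p = 0.00425). On the low-fat diet the B6 arrays, at 10.14, 10.44 and 10.40, again lay above the 129S6 arrays, at 9.68, 9.43, 9.93 and 9.32. That difference was 0.74 ± 0.19 and did not pass (adjusted p = 0.237). The dimmer Lpl probe set was higher in B6 by 1.02 ± 0.39 on the high-fat and 0.92 ± 0.42 on the low-fat diet, with adjusted p of 0.0608 and 0.754 in the fit of all probe sets. Between the diets Lpl in muscle differed by 0.19 ± 0.19 in B6 (adjusted p = 0.433) and by 0.00 (SE 0.17, adjusted p = 0.9998) in 129S6. After quantile normalization the B6 diet difference was 0.80 (adjusted p = 0.0308). The dimmer probe set differed by -0.63 ± 0.42 between the diets in B6 (adjusted p = 0.247 in the fit of all probe sets).

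Lpl was the 1 member of 9 called between the strains on the high-fat diet in muscle, where 29.3% of all genes passed and 15.5% were higher in B6. The B6 high-fat arrays in that comparison all belong to those with the small spread of values. With the SD of each array as a covariate the Lpl difference was 0.98 (adjusted p = 0.0545). The 5 endothelial genes, summed, were at 9.73 to 9.92 against 9.00 to 9.16 in 129S6 high-fat muscle, but 1 of them was called higher and 1 lower, with a median difference of -0.01. That of the white adipocyte genes, another source of Lpl, stood at 10.18 to 10.55 against 10.39 to 10.74. Ucp1, the defining gene of brown adipocytes, was lower in B6 muscle, at 5.24 to 5.97 on its 7 arrays against 6.54 to 10.32 on the 8 of 129S6. Of the 5 brown adipocyte genes, 3 were called lower in B6 on the high-fat diet and 0 either way on the low-fat diet. There the summed levels overlapped, at 11.88 to 12.11 in B6 and 9.75 to 12.25 in 129S6. The part of these cells in the Lpl difference was not tested. On the low-fat diet, where no B6 array had the small spread, the endothelial levels overlapped (9.06 to 9.55 and 9.06 to 9.76).

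Fabp3, the binding protein of muscle fibres, moved with those same arrays. It read 10.12, 10.12 and 10.05 in B6 low-fat muscle and 9.42, 8.73, 8.27 and 9.37 in B6 high-fat muscle. In 129S6 it read 7.48, 9.53, 9.97 and 9.25 on the low-fat and 10.04, 9.77, 10.00 and 10.25 on the high-fat diet. The lowest of all was 129S6 low-fat array 9, the other array with the small spread. The diet difference was -1.15 ± 0.44 in B6 (adjusted p = 0.0633) and 0.96 ± 0.41 in 129S6 (adjusted p = 0.99), and the test of one against the other gave -2.11 ± 0.60 (adjusted p = 0.0566). Without array 9 the B6 diet difference passed at the same size (adjusted p = 0.00278), the 129S6 difference was 0.43, and the test between them gave -1.59 (adjusted p = 0.0108). With the SD of each array as a covariate, the B6 diet difference became 0.36 (adjusted p = 0.453) and the test between the strains -0.26 (adjusted p = 0.954). Ckm, the creatine kinase of muscle, was low on the same arrays, at 10.16 to 11.58 in B6 high-fat muscle and 9.87 on array 9 against 11.77 to 12.08 on the other 10. Summed, the 8 muscle fibre genes stood at 14.83 to 15.52 and 13.74 against 15.43 or more. Other cell types moved with these arrays too. The summed level of the 2 measured of 3 red blood cell genes was 8.86 to 10.44 on these 5 arrays and 12.20 to 13.76 on the other 10. That of 5 brown adipocyte genes, a cell type that also makes Fabp3, was 9.46 to 10.04 against 11.82 to 12.36, carried by Cox8b and Cox7a1, which muscle fibres express as well. The part of these cells in the Fabp3 values was not tested.

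**Figure D3:**
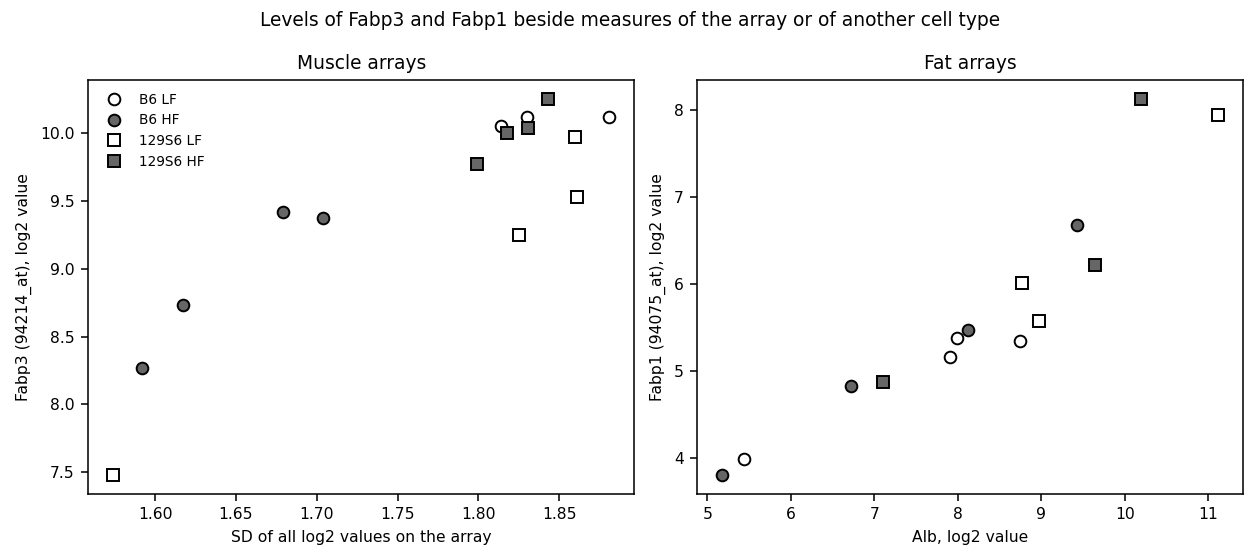
Left, the log2 value of Fabp3 on the 15 muscle arrays against the SD of all values on the array; the 4 B6 high-fat arrays and 129S6 low-fat array 9, at an SD of 1.70 or less, include the 3 lowest Fabp3 values (7.48, 8.27 and 8.73). Right, the log2 value of Fabp1 on the 14 fat arrays against that of Alb; both run from low (3.81 and 5.18) to high (8.12 and 11.12) over the same arrays.

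No other member was called in muscle. Fabp1 varied most on the 129S6 arrays. Its highest muscle values, 6.24 on 129S6 high-fat array 1 and 5.59 on 129S6 low-fat array 12, lay on the arrays with the highest Alb, the albumin gene of hepatocytes (8.73 and 8.81, where the other muscle arrays were at 5.34 to 7.33). Its strain difference on the high-fat diet was -0.80 ± 0.36 (adjusted p = 0.103), and the part of liver RNA in it was not tested. Cd36 was at 6.59 to 7.50 in B6 low-fat and 6.97 to 7.76 in B6 high-fat muscle, 0.45 ± 0.23 higher (adjusted p = 0.136). Fabp4 on the high-fat diet was lower in B6, at 6.06 to 6.99, than in 129S6, at 7.07 to 7.49, a difference of -0.46 (SE 0.20, adjusted p = 0.0914). Fabp5 in B6 muscle was at 6.98 to 7.11 on the low-fat and 7.20 to 7.44 on the high-fat diet, 0.30 ± 0.12 higher. Its adjusted p was 0.0634 over all muscle arrays and 0.0205 without 129S6 low-fat array 9. Over the alternatives run, the Fabp5 difference ranged from 0.08 to 0.39 (adjusted p up to 0.847) and that of Fabp4 from -0.55 to -0.19 (adjusted p up to 0.810). The B6 high-fat arrays behind these Cd36, Fabp4 and Fabp5 differences are those with the small spread of values. In all, 0 of 9 members were called for diet in B6 (26.8% of all genes; 2 members had an unadjusted p under 0.05), 0 of 9 for diet in 129S6 (0.0%; 1), 0 of 9 for strain on the low-fat diet (0.279%; 4) and 0 of 9 for the test of B6 against 129S6 (3.19%; 1), all with limma.

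**Figure D4:**
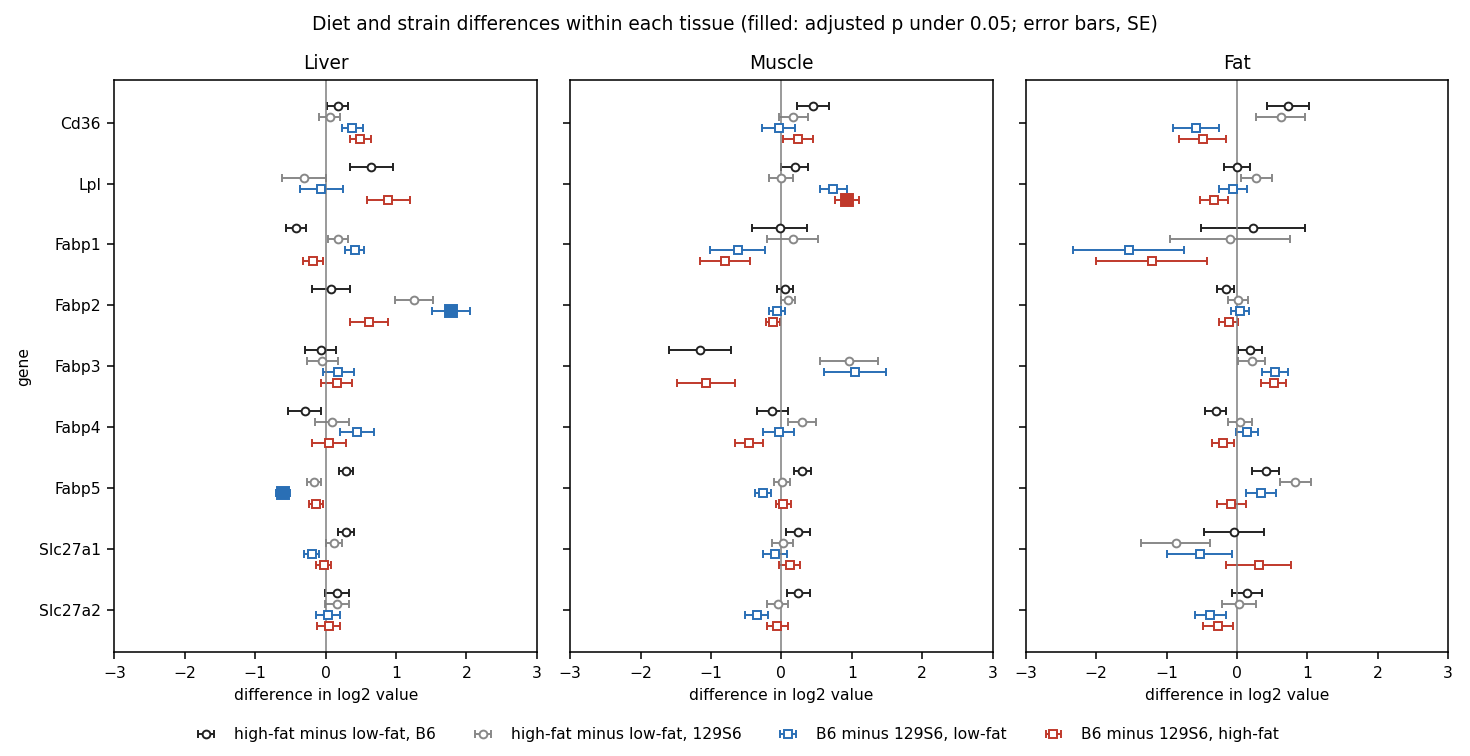
Diet differences (circles, high-fat minus low-fat in B6 or 129S6) and strain differences (squares, B6 minus 129S6 on the low-fat or high-fat diet) of the 9 genes in liver, muscle and fat, in log2 units with SE. Filled symbols passed the test: Fabp2 (1.78) and Fabp5 (-0.60) between the strains in low-fat liver and Lpl (0.93) in high-fat muscle.

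In fat, 0 of 9 members passed in any of the 5 comparisons with limma, among few genes overall: 0.279% of all genes for diet in B6, 0.751% for diet in 129S6, 1.08% for strain on the low-fat diet, 0.436% on the high-fat diet and 0.0% for the test of B6 against 129S6. In the first 4 of these, 1 member had an unadjusted p under 0.05. Fabp5 had the smallest adjusted p among them. In 129S6 fat it read 7.68, 7.77 and 8.02 on the low-fat and 8.40, 8.43 and 9.12 on the high-fat diet, apart on every array, a difference of 0.83 ± 0.22 (1.77-fold, adjusted p = 0.132). Without B6 high-fat array 7 the same difference had an adjusted p of 0.0255, and without all 3 arrays with the large Gapdh end difference it was 1.30 (adjusted p = 0.0190), though that leaves 1 high-fat 129S6 array, taken to vary like the others. In B6 fat, Fabp5 overlapped between the diets, at 7.98 to 8.43 and 8.22 to 8.86. The summed level of the 8 macrophage genes was 10.65 to 11.09 in 129S6 low-fat and 11.84 to 12.78 in 129S6 high-fat fat, and its part in the Fabp5 difference was not tested.

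Cd36 read 7.19, 7.36, 7.89 and 7.89 in B6 low-fat, 7.72, 7.68, 9.30 and 8.52 in B6 high-fat, 8.29, 8.00 and 8.21 in 129S6 low-fat and 8.74, 8.93 and 8.70 in 129S6 high-fat fat. The high-fat diet thus came with a difference of 0.72 ± 0.30 in B6 (adjusted p = 0.303) and 0.62 ± 0.35 in 129S6 (adjusted p = 0.424), the latter with no overlap. B6 array 7 (9.30) and 129S6 arrays 12 and 13 (8.74 and 8.93) are those with the large Gapdh end difference, and with that difference as a covariate the diet differences were 0.37 (adjusted p = 0.607) and 0.01 (adjusted p = 0.9999). Without array 7 the B6 difference was 0.39 (adjusted p = 0.573). The strains differed by -0.58 ± 0.33 on the low-fat diet (adjusted p = 0.678), every 129S6 array above every B6 array. On the high-fat diet B6 array 7, the highest of the fat arrays for Cd36, overlapped the 129S6 group. Without it the strain difference there was -0.82 (adjusted p = 0.0405) in place of -0.49 ± 0.33 (adjusted p = 0.759). The high-fat fat arrays of B6 and 129S6 lay in different runs, so within that comparison strain and run cannot be told apart, for any member. On the low-fat diet only 129S6 array 9 shared the run of the B6 fat arrays.

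Fabp3, dim in fat, was higher in B6 than in 129S6 on both diets with no overlap, by 0.54 ± 0.18 on the low-fat (adjusted p = 0.273) and 0.52 ± 0.18 on the high-fat diet (adjusted p = 0.363). Fabp4 kept to a narrow band, from 7.49 to 8.31, with group means of 7.71 to 8.01. Fabp2 and Slc27a2 were as dim in fat as in muscle.

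The 2 probe sets of Lpl disagreed on some fat arrays. By the brighter one the group means were 11.91 ± 0.27, 11.92 ± 0.42 (SD, n = 4 each), 11.98 ± 0.08 and 12.24 ± 0.05 (n = 3 each) for B6 low-fat, B6 high-fat, 129S6 low-fat and 129S6 high-fat fat, and the largest of the 4 diet and strain differences was -0.33 ± 0.20 (adjusted p = 0.74). Without B6 high-fat array 7 that difference, between the strains on the high-fat diet, was -0.52 (adjusted p = 0.0480). Strain and run cannot be told apart there either. By the dimmer one, B6 high-fat array 7 read 5.62 and 129S6 high-fat array 13 read 5.82, where the other 12 arrays read 9.31 to 11.16. Both are arrays with the large Gapdh end difference, and by the brighter one they read 12.50 and 12.24, among the highest. Slc27a1 was likewise lowest on the 3 arrays with that difference, at 6.63 on B6 high-fat array 7 and 7.18 and 7.36 on 129S6 high-fat arrays 12 and 13, where the other 11 read 7.90 to 8.86. Its diet difference in 129S6 fat of -0.87 ± 0.49 (adjusted p = 0.429) rests on those arrays: array 14, the high-fat 129S6 array without the Gapdh difference, read 8.68, within the low-fat range of 8.37 to 8.86.

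**Figure D5:**
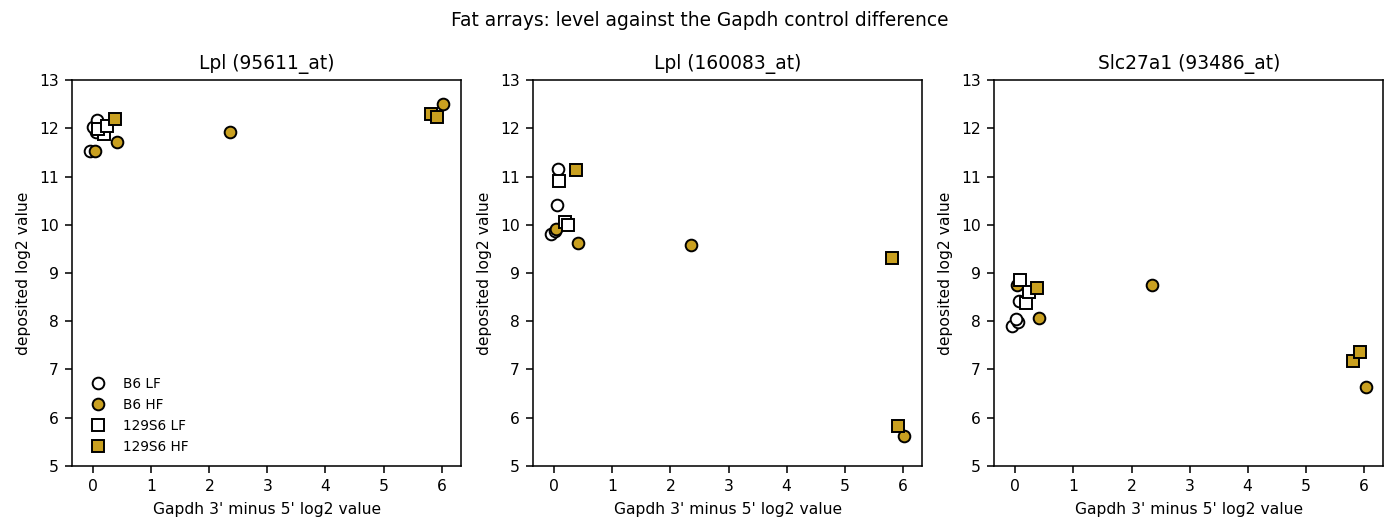
Log2 values of both Lpl probe sets and of Slc27a1 on the 14 fat arrays against the Gapdh 3' minus 5' difference of the array. At a difference of 5.81 to 6.03, Lpl by the brighter probe set (left) stays at 12.24 to 12.50, Lpl by the dimmer one (middle) lies at 5.62 and 5.82 on 2 of the 3 arrays, and Slc27a1 lies at 6.63 to 7.36, below the other arrays.

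Fabp1 in fat varied more than any other member, with 3.99, 5.35, 5.16 and 5.38 in B6 low-fat, 6.68, 4.83, 5.47 and 3.81 in B6 high-fat, 7.94, 6.01 and 5.58 in 129S6 low-fat and 6.22, 4.88 and 8.12 in 129S6 high-fat fat. Alb read 5.44, 8.74, 7.91 and 7.99 on the first 4 of these arrays and 9.43, 6.72, 8.12 and 5.18 on the B6 high-fat ones. On the 129S6 arrays it read 11.12, 8.77 and 8.97 on the low-fat and 9.64, 7.10 and 10.19 on the high-fat diet. The arrays with high Fabp1 were those with high Alb, in both strains and on both diets. The summed level of all 7 hepatocyte genes ran from 8.36 to 11.98 over the fat arrays, and its part in the Fabp1 values was not tested. The strain difference of Fabp1 was -1.54 ± 0.79 on the low-fat (adjusted p = 0.635) and -1.21 ± 0.79 on the high-fat diet (adjusted p = 0.757).

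The 3 tissues were then set against each other within one fit of 45 arrays. That fit held no term for the runs of array numbers. Where a strain or diet difference rests on the B6 low-fat livers, as for Fabp2 and Fabp5 between the strains, run and group cannot be told apart. The high-fat livers of B6 and 129S6 also lay in different runs. In fat, only 129S6 low-fat array 9 shared the run of the B6 arrays. The strain differences of Cd36 and Lpl in liver and fat carry this limit too. The strain difference, averaged over the diets, depended on the tissue for 4 of 9 members, beside 13.1% of all genes. These were Fabp2 (adjusted p = 1.05e-05), Cd36 (adjusted p = 0.0188), Lpl (adjusted p = 0.0260) and Fabp5 (adjusted p = 0.0417). For Fabp2 the strain difference was 1.78 and 0.61 on the low-fat and high-fat diets in liver and between -0.12 and 0.04 in muscle and fat. For Cd36 it was 0.38 and 0.49 in liver, -0.04 and 0.24 in muscle and -0.58 and -0.49 in fat, opposite in sign between liver and fat. Lpl was higher in B6 muscle by 0.74 and 0.93, at -0.06 and 0.89 in liver and at -0.06 and -0.33 in fat. The call for Fabp5 was the least firm and was lost in 24 of 53 alternatives. Leaving out single arrays moved its adjusted p to as much as 0.0909, and the SD of each array as a covariate to 0.0636. Fabp3 joined these when 129S6 low-fat muscle array 9 was left out (adjusted p = 0.0309). Fabp1 did so without B6 high-fat fat array 2 (adjusted p = 0.0433) or without 129S6 high-fat fat array 13 (adjusted p = 0.0273).

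The diet difference, averaged over the strains, depended on the tissue for 2 of 9 members, beside 16.4% of all genes. Fabp5 (adjusted p = 0.0152) had diet differences of 0.29 and -0.17 in B6 and 129S6 liver, 0.30 and 0.01 in muscle and 0.41 and 0.83 in fat. Fabp2 (adjusted p = 0.0198, or 0.0622 with the Gapdh end difference as a covariate) had 0.08 and 1.26 in liver and between -0.16 and 0.10 elsewhere.

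Ordered by group mean, neighbouring groups mostly overlapped in their range of arrays, and most breaks fell at tissue borders. Slc27a1 had no break among its 12 groups. Fabp3, Fabp4 and Slc27a2 had 1 each, between muscle and the rest, between the 8 groups of fat and muscle and those of liver, and between liver and the rest. Cd36 had 2, between muscle and liver and, inside fat, between 129S6 low-fat and B6 low-fat. Fabp1 had 2, between liver and the rest and, inside muscle, between 129S6 low-fat and B6 low-fat. Lpl had 4 breaks, of which 1 lay inside muscle, between B6 and 129S6, and 1 inside fat, between 129S6 high-fat and 129S6 low-fat. Fabp2 had 2, of which 1 set 129S6 low-fat liver below the other livers, and Fabp5 had 2, of which 1 set B6 low-fat liver at the bottom.

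The genes most like each member in pattern were taken by Pearson correlation, over the 12 group means and again over the 45 arrays after the mean of each tissue was removed. These are descriptions, since the points share tissues and arrays. Over the group means, Fabp3 was closest to Myl2 (r = 0.997) and Ckm (0.995), Fabp1 to Plg and Apoa1 (0.996 each), Slc27a2 to Apoa2 and Gjb2 (0.999 each), and Lpl to Acta2 (0.990) and Adipoq (0.986). Fabp4 was also closest to Adipoq (0.988). For Fabp1, 401 genes had an r above 0.9, so such values mostly mark tissue. Once tissue was removed, Cd36 was closest to Pdk4 (0.842), the kinase that holds back glucose oxidation, Fabp2 to Vnn1 (0.813) and Rdh16 (0.799), Fabp3 to Myl2 (0.838), Slc27a2 to Cyp4a10 (0.695) and Fabp1 to Alb (0.918). Fabp4 had no close match, the highest being Mrpl39 at 0.533.

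Genes that work beside the members were described from 4 lists with 32 measured genes. In liver these calls carry the limit given for the members. With the runs as a random block the calls over the lists went from 10 to 0 for diet in B6, from 10 to 0 for strain on the low-fat diet and from 4 to 0 for the test of B6 against 129S6, and for strain on the high-fat diet, with the runs as a block, from 3 to 0. Over all genes the first 3 went from 1502 to 111, from 1142 to 103 and from 453 to 11. In muscle, with the SD of each array as a covariate, calls over the lists went from 5 to 0 for diet in B6 and from 6 to 1, Dbi, for strain on the high-fat diet. The values below are from the fits without these terms.

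Of 7 measured other binding proteins of 9, Dbi, the acyl-CoA-binding protein, was lower on the high-fat diet in B6 liver, at -0.50 (SE 0.15, adjusted p = 0.0266, 1 of 7 beside 18.2% of all genes), and in B6 muscle, at -2.65 (SE 0.56, adjusted p = 0.0104). Dbi was also higher in B6 than in 129S6 liver on the low-fat diet, by 0.86 ± 0.15 (adjusted p = 9.94e-04). The muscle difference of Dbi involves the B6 high-fat arrays with the small spread, and with the SD of each array as a covariate it was -0.71 (adjusted p = 0.175). In the strain comparison of low-fat liver 2 of the 7 passed, both higher, Dbi and the brain isoform Fabp7 (0.39 ± 0.11), beside 10.0% of all genes higher.

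Of 9 measured of 12 other uptake and acyl-CoA genes, 3 passed for diet in B6 liver, 1 higher and 2 lower (18.2% of all genes passed), and 3 between the strains in low-fat liver, all higher in B6 (10.0% of all genes higher). Slc27a5, the liver transport protein that also activates bile acids, was lower on the high-fat diet in B6 liver, at -0.74 (SE 0.10, adjusted p = 1.72e-04), and its diet difference in B6 less that in 129S6 was -0.94 (SE 0.14, adjusted p = 0.00177). Scarb1, the HDL receptor, was lower in B6 than in 129S6 high-fat liver, at -0.92 (SE 0.20, adjusted p = 0.0121). By tissue, Slc27a5 shared the liver pattern of Slc27a2, 3.97 ± 0.06 above muscle, and Cav1, the caveolin of adipocytes and endothelium, was above liver in fat by 5.63 ± 0.11.

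Of 8 measured of 13 lipases and lipase regulators, 4 passed for diet in B6 liver, beside 18.2% of all genes. Lmf1, which lipoprotein lipase needs to mature, was lower, at -0.72 (SE 0.13, adjusted p = 0.0014), Apoc2, its activator, was higher by 0.52 ± 0.11 (adjusted p = 0.00407), and Angptl4, its inhibitor, was lower, at -0.38 (SE 0.13, adjusted p = 0.0482). In fat against muscle 6 of these 8 passed, all higher in fat, where 30.4% of all genes were higher, with a median of 2.08 over the list beside -0.07 over all genes. The intracellular lipases Pnpla2 and Mgll were lower in B6 than in 129S6 high-fat muscle, at -1.18 (SE 0.38, adjusted p = 0.0327) and -1.01 (SE 0.22, adjusted p = 0.00752), beside 29.3% of all genes called in that comparison. With the SD of each array as a covariate they were at -0.13 (adjusted p = 0.911) and -0.34 (adjusted p = 0.333).

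Of the 8 lipid-sensing nuclear receptors and partners, all measured, 2 passed for diet in B6 liver (18.2% of all genes), both higher: Ppara, the receptor that senses fatty acids in liver (2.09 ± 0.43, adjusted p = 0.00357), and its partner Rxra (0.68 ± 0.16, adjusted p = 0.0093). Pparg, the adipocyte receptor, was higher in B6 than in 129S6 liver on the low-fat (0.93 ± 0.24, adjusted p = 0.0156) and the high-fat diet (0.97 ± 0.24, adjusted p = 0.0249). Between the diets in 129S6 liver or muscle, between the strains in low-fat muscle and in the 5 fat comparisons, 0 genes of these 4 lists passed with limma.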

How the data were processed

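RNA of liver, skeletal muscle and epididymal fat was measured on 45 Affymetrix arrays, each from 25 µg of RNA pooled from 2 to 3 mice. The deposited table holds log2 values, made with RMA per the submitters' processing notes, which name no version. The array medians were 6.07 to 6.24. Number of arrays, not read depth, limits the precision.

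Of 12488 probe sets, 66 were controls, 10833 had 1 gene symbol, 396 several and 1193 none; 10817 were matched by Entrez ID to current symbols. The brightest probe set stood for each of 8251 genes. With limma 3.58.1 in R 4.3.3, each tissue was fitted with its 4 group means for 2 diet differences, 2 strain differences (B6 minus 129S6) and the difference between the diet differences. All 45 arrays were fitted with 12 group means for 3 tissue differences, averaged over the groups, and 2 F-tests of whether strain or diet differences depend on tissue. The diet and strain comparisons of a tissue share groups. P-values were adjusted by Benjamini-Hochberg over all genes. The scripts were tested on simulated data.

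All probe sets of the 9 genes were fitted, and values of the second probe sets of Cd36, Lpl and Fabp1 are given in part. For each gene the 3 genes most like it were found, and some of them are named. At most 5 genes of a list are given in a comparison. The members, marker genes and lists were chosen with earlier results of these data known. Tried as alternatives were other probe set choices, a filter on dim genes, quantile normalization, another variance prior, covariates for the Gapdh end difference and the array SD, runs of array numbers, only the groups compared, a replicate block and leaving out each array. The highest correlation between 2 arrays of a group was 0.995, so no array was taken for a copy of another. Tissues share some replicate numbers of the sample titles. Of 12 same-numbered pairs of arrays, 2 had deviations from their group means that correlated above 0.1, beside 45 of 156 pairs with other numbers. This cannot show whether same-numbered arrays came from the same mice, and the main fits did not pair them.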

Additional observations from a re-analysis of the deposited data

Results flagged for a closer look

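Dixon's test was applied to the arrays of 108 pairs of probe set and group with 4 arrays, and 9 pairs had an array far from the others. Chance marks about 1 in 20 such groups. The brighter Lpl probe set was high on B6 high-fat liver array 13, at 7.55. The dimmer Lpl probe set was low on B6 high-fat fat array 7, at 5.62. Fabp1 was high on 129S6 low-fat liver array 11, at 12.09, and low on B6 low-fat fat array 1, at 3.99. Fabp4 in muscle was low on B6 high-fat array 7, at 6.06, and high on 129S6 high-fat array 1, at 7.49. Fabp5 was low on B6 high-fat muscle array 5, at 7.20. The dim second probe set of Cd36, which read 2.97 to 4.04 in all tissues, was high on B6 low-fat liver array 2, at 3.12, and on 129S6 low-fat muscle array 9, at 4.04.

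Differences that depended on the tissue were marked by limma's F-test, in a fit without a term for the runs of array numbers. The limits given above for the B6 low-fat livers and for the runs of the high-fat livers and the fat arrays hold here too. The strain difference depended on the tissue for Fabp2 (adjusted p = 1.05e-05), Cd36 (adjusted p = 0.0188), Lpl (adjusted p = 0.0260) and Fabp5 (adjusted p = 0.0417). The diet difference depended on it for Fabp5 (adjusted p = 0.0152) and Fabp2 (adjusted p = 0.0198).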

How the results depend on the processing

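Under the alternatives run, 5597 values of single genes were recomputed. Of these, 5497 kept their direction and their side of the threshold or were never called, 29 lost their call, 71 gained one and 0 called values reversed. For B6 liver diet, 0 of 9 genes called became 2 without the dimmest genes, 1 with quantile normalization, 2 with the Gapdh covariate, 1 with the array SD covariate and 3 with only the groups compared. For 129S6 liver diet, 0 became 1 with either covariate, and with the runs as a block and within 1 run, which rest on the same arrays. For liver strain, 2 called on the low-fat diet became 0 with runs as a random block, and 0 on the high-fat diet became 1 with the Gapdh covariate, 2 with the SD covariate and 2 with only the groups compared. For B6 against 129S6 in the liver diet difference, 0 became 3 with the Gapdh and 1 with the SD covariate. In muscle, 0 for B6 diet became 1 with quantile normalization, 2 with the Gapdh covariate and 1 with only the groups compared; 1 for strain on the high-fat diet became 2, 2 and 2 under these and 0 with the SD covariate; and 0 for the test between the strains became 1 with the Gapdh covariate. In fat, 0 for 129S6 diet became 1 without the 3 arrays of large Gapdh difference, and 0 for strain on the low-fat diet became 1 within 1 run, which holds a single 129S6 array, taken to vary like the others. The 2 genes with a tissue-dependent diet difference became 1 without the dimmest genes and 1 with the Gapdh covariate. The causes were not tested.

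Leaving out 1 array at a time gave 0 to 3 genes for B6 liver diet, 0 to 1 for 129S6 liver diet, 2 to 3 for low-fat and 0 to 1 for high-fat liver strain, 0 to 2 for the liver test between strains, 0 to 2 for B6 muscle diet, 1 to 2 for high-fat muscle strain, 0 to 1 for the muscle test between strains, 0 to 1 for 129S6 fat diet, 0 to 2 for high-fat fat strain, 6 to 7 for fat against muscle, 3 to 5 for a tissue-dependent strain difference and 2 to 3 for diet. The 9 and 8 genes of the other 2 tissue comparisons stayed at that number. The replicate block, fitted as a random effect over the 45 arrays, had a consensus correlation of -0.0846; with it, the Lpl difference of liver minus muscle was -4.10 beside -4.09. Runs as a fixed block could not be fitted for liver comparisons with the B6 low-fat group.

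Counts over all genes also moved by more than 1.5 times, leaving single arrays aside. In liver, 1502 genes for B6 diet became 111 with runs as a random block, 19 for 129S6 diet became 4 to 30, 1142 for low-fat strain became 103 to 500, 426 for high-fat strain became 167 to 914 and 453 for the test between strains became 11 to 1022. In muscle, with the SD covariate 2214 for B6 diet became 61 and 2414 for high-fat strain became 133, while 23 for low-fat strain became 6 to 52 and 263 for the test between strains 4 to 1342. In fat, 23 for B6 diet became 1 to 182, 62 for 129S6 diet 0 to 186, 89 for low-fat strain 15 to 743, 36 for high-fat strain 4 to 161 and 0 for the test between strains 4. For tissue-dependent diet differences 1351 became 613 with the Gapdh covariate.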
